A study of Mus musculus and Homo sapiens with 4 samples.

Results

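Oxidative phosphorylation is carried out by 5 complexes of the inner mitochondrial membrane. Complexes I, III and IV move electrons from NADH to oxygen and pump protons, complex II passes electrons on from succinate without pumping, and complex V, the ATP synthase, uses the proton gradient to make ATP. Complex II is encoded wholly in the nucleus, whereas the other complexes join nuclear subunits with a few subunits made from mitochondrial DNA, put together in fixed numbers. In prostate cancer cells, as in most dividing cells, these genes are highly expressed.

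The transcripts of the nuclear genes of these complexes were examined in VCaP cells, a prostate cancer line, and in VCaP ERα cells, which are VCaP cells made to stably overexpress oestrogen receptor α (ERα). Members were chosen by symbol alone, without any measured value. An entry of the expression tables belonged to the group when one of its symbols began with NDUFA, NDUFB, NDUFC, NDUFS or NDUFV (complex I), UQCR (complex III), COX4, COX5, COX6, COX7 or COX8 (complex IV) or ATP5 (complex V), or was SDHA, SDHB, SDHC or SDHD (complex II) or CYC1 (complex III). This gave 90 members of 25932 entries, of which 41 fell in complex I, 4 in complex II, 9 in complex III, 18 in complex IV and 18 in complex V. Of the 90 members, 81 encode subunits. The other 9 carry a prefix without being a subunit, and are the assembly factors NDUFAF1 and NDUFAF2, the NDUFA4 paralogue NDUFA4L2, the copy UQCRHL of UQCRH, the copy ATP5EP2 of ATP5E, the supercomplex factor COX7A2L, the coupling factor ATP5S, ATP5SL, and COX4NB, which is a neighbour of COX4I1 and not a part of complex IV.

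RNA was measured in 4 libraries, with 1 library per condition. The VCaP cells were at passages 5 to 6 and the VCaP ERα cells at passages 4 to 5, both in DMEM with serum and antibiotics. Their total RNA was depleted of ribosomal RNA and made into strand-specific libraries labelled as poly-A-. The other libraries came from embryonic fibroblasts of wild-type and NEAT1 knockout C57BL/6 mice, grown for 2 to 3 passages. The embryos were of the same age for both genotypes, about embryonic day 14 when rounded to a whole day. Values are RPKM, that is reads relative to entry length and library size, and a log2 ratio is log2 of the quotient of the VCaP ERα and VCaP values after adding 1 to each. With 1 library per condition no test was possible, and a difference between conditions and one between the individual cultures or libraries cannot be told apart.

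Before the members are described, a few facts of the whole tables bear on them. ESR1, the gene of ERα, had 15.7 RPKM in VCaP against 209 RPKM in VCaP ERα. The library labelled VCaP went against its label. The 12 prostate luminal markers checked had a median of 0.127 RPKM there and of 117 RPKM in VCaP ERα, with all 12 higher in VCaP ERα, whereas 9 of 11 entries of luminal breast markers were lower in VCaP ERα (medians of 114 and 6.998 RPKM). The part of this difference in the results below was not tested, and every direction given here is between the library labelled VCaP and that labelled VCaP ERα. In such bulk RNA, fewer cells of a type and less RNA per cell cannot be told apart. For the 9754 entries that reached 1 RPKM in each of the libraries, the midpoint of the log2 ratios lay at -0.59, which serves as the reference below, so a member with a log2 ratio between -0.59 and 0 was lower in RPKM yet above the typical expressed entry.

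The nuclear oxidative phosphorylation genes were well expressed in both libraries, and their log2 ratios were spread less widely than those of all entries with a mean of at least 10 RPKM. Beside all 25932 entries, many of them at or near 0, the spread was alike, with interquartile ranges of 1.04 for the members and 1.02. The members held 2.79% of the summed RPKM in VCaP against 3.36% in VCaP ERα. Their median level was 51.4 RPKM in VCaP against 41.4 RPKM in VCaP ERα, and 82 of the 90 members reached 1 RPKM in both libraries. The tissue-specific forms COX4I2, COX6A2, COX7A1, COX7B2 and COX8C stayed under 1 RPKM in both, and NDUFA4L2, COX6B2 and SDHC reached it in 1 library. By complex, the share of the summed RPKM went from 0.768% to 0.801% for complex I, from 0.0434% to 0.0766% for complex II, from 0.243% to 0.464% for complex III, from 0.777% to 0.935% for complex IV and from 0.960% to 1.09% for complex V. Each of the 5 complexes thus held a larger share of the summed RPKM in VCaP ERα, most of all in relative terms for complexes III and II. The subunits of complex III without UQCRHL went from 0.222% to 0.394%. The sum over all entries was itself lower in VCaP ERα, at 267630 and 196948 RPKM, and that over the members was 7470 and 6627 RPKM. In summed RPKM, complexes I, IV and V were lower in VCaP ERα and complexes II and III were higher. Such sums can rest on few entries, such as UQCRH (94.9 and 317 RPKM), SDHD (13.4 and 65.9 RPKM) and COX8A (314 and 633 RPKM). Lower in RPKM were 29 of 41 members of complex I and 3 of 4 of complex II. The same held for 4 of 9 of complex III, 9 of 18 of complex IV and 10 of 18 of complex V. Across the 90 members the level on the log2(RPKM + 1) scale in one library followed that in the other, with a Pearson's r of 0.91 and a Spearman's rho of 0.87. The members share both libraries and are not independent replicates.

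**Figure D1:**
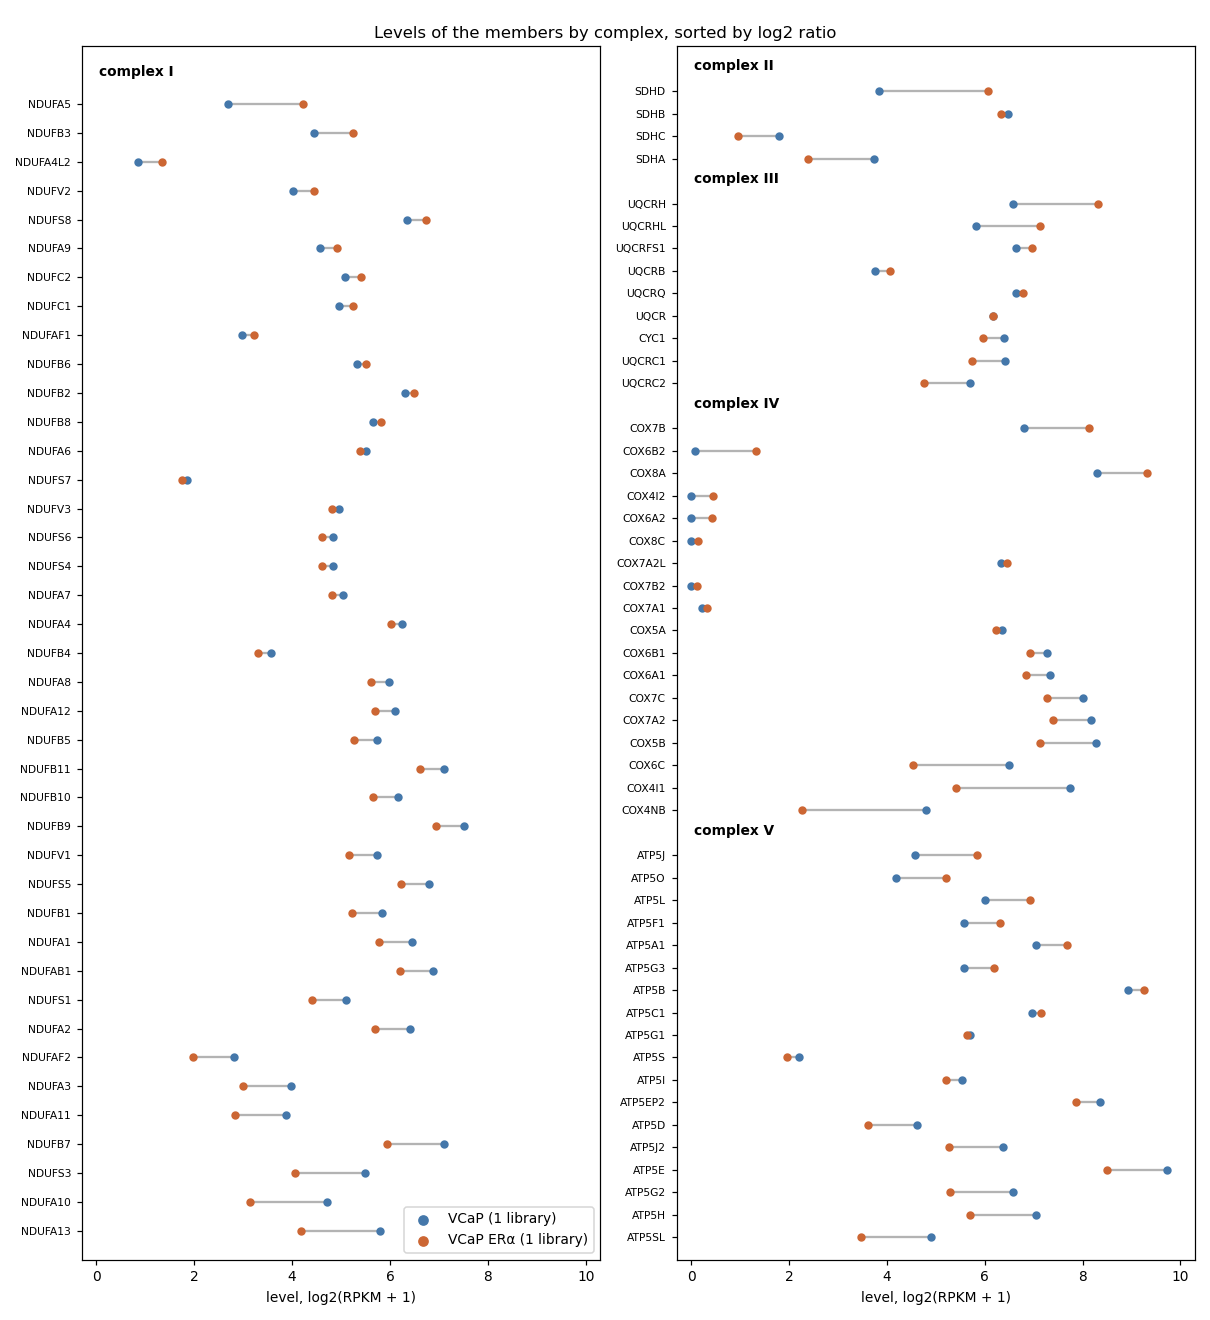
Level of the members as log2(RPKM + 1) on the x axis, in VCaP (blue points) and VCaP ERα (orange points), with members grouped by complex and sorted by log2 ratio from top to bottom. Each point is 1 library, and the longest grey lines belong to COX4NB and COX4I1 (lower in VCaP ERα) and to SDHD (higher in VCaP ERα).

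Between the libraries, 35 members were higher and 55 lower in VCaP ERα, whereas 61 lay above and 29 below the reference median of -0.59. Of all 25932 entries, many of them at or near 0 in both libraries, 41.2% were lower and 74.1% above the reference median, against 61.1% and 67.8% of the members. The median log2 ratio of the members was -0.24, with quartiles of -0.72 and 0.32 and a range from -2.53 to 2.22. A log2 ratio above 1, that is 2-fold, was reached by 9 of 90 members (10%), against 9.16% of all entries, and a ratio below -1 by 16 members (17.8%), against 18.5% of all entries. Once ratios were centred on the reference median, the split of 9 higher and 16 lower became 18 higher and 4 lower (20% and 4.44% of the members), against 24.2% and 10.4% of all entries under the same centring. After quantile normalization it was 17 and 4 (18.9% and 4.44%), against 12.7% and 11.9% of all entries. The turn of the split on centring is a shift common to every entry. Past the threshold of 2, that is 4-fold, 1 member was higher (1.11%, against 2.27% of all entries) and 2 were lower (2.22%, against 6.56%).

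Many of the 25932 entries were barely expressed, so the members were also set beside the 4223 entries with a mean of at least 10 RPKM, a level that 75 members reached. Of these 75 members, 14 (18.7%) had a log2 ratio below -1, against 44.3% of the entries of that level, and 8 (10.7%) had a ratio above 1, against 12.1%. Past 4-fold there were 2 lower members (2.67%), against 22.2%, and 1 higher member (1.33%), against 5.21%. The interquartile range of the log2 ratio was 1.04 over the 75 members and 2.05 over the entries of that level. Their medians were -0.33 and -0.77, and 64% of the members were lower in RPKM, against 70% of the entries of that level. Above the reference median lay 66.7% of the members and 44.7% of those entries. Centring left 18.7% of the members above 1 and 5.33% below -1, against 20.8% and 29.8% of the entries of that level. Over all 90 members the interquartile range of the log2 ratio was also 1.04. Among whole lists described further below, it was narrower for cytosolic ribosomal proteins (0.90) and assembly factors (0.96). The same held for subunits and partners missed by the prefixes (0.75) and for carriers with VDAC channels (0.28). The interquartile range was wider for regulators (1.24), mitochondrial ribosomal proteins (1.43) and the tricarboxylic acid cycle with pyruvate dehydrogenase (1.66). The lists were not matched for level or size. That of carriers and channels had 8 entries with log2 ratios from -1.69 to 1.19, and SLC25A6 was listed at 0 in both libraries. Of 100 cytosolic ribosomal entries, 86 reached 1 RPKM in at least 1 library. No test was made of these differences.

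**Figure D2:**
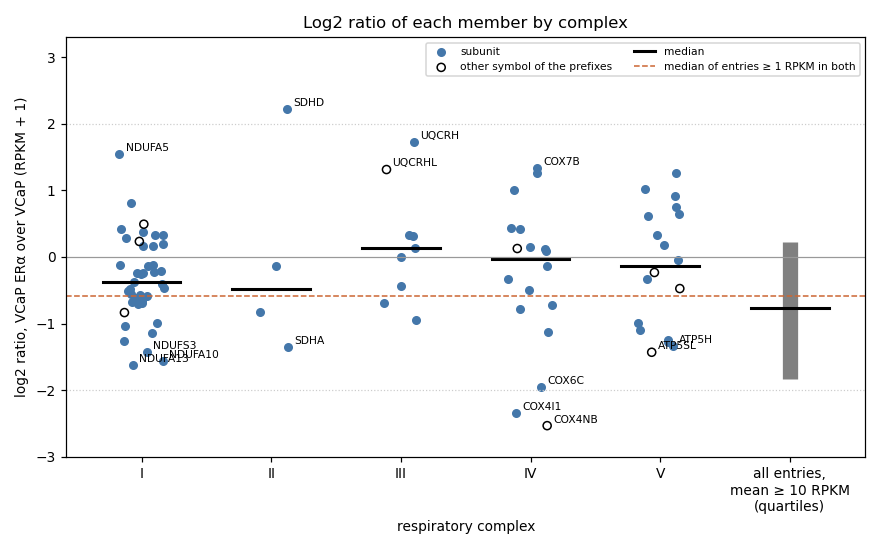
Log2 ratio of VCaP ERα over VCaP (RPKM + 1, y axis) for each member by complex (x axis), with filled points for subunits, open points for other symbols of the prefixes and black bars for medians. The grey bar at the right spans the quartiles of the 4223 entries with a mean of at least 10 RPKM, the dashed line is the reference median of -0.59, and most members lie within 1 of 0, while COX4I1, COX4NB and SDHD pass the dotted lines at 2 and -2.

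Complex I, the NADH dehydrogenase, had 12 members higher and 29 lower in RPKM and a median log2 ratio of -0.37, while 28 were above and 13 below the reference median. The share that was lower, 70.7%, was near that of the 9754 expressed entries (70.9%). It was also the narrowest of the larger groups, with an interquartile range of 0.85, and 1 member passed 1 and 6 passed -1. The lower ones sat in several modules. NDUFA13, also known as GRIM-19, an accessory subunit of the membrane arm, had 54.8 RPKM in VCaP against 17.2 RPKM in VCaP ERα, giving a log2 ratio of -1.62. NDUFA10, an accessory subunit related to nucleoside kinases, had 25.2 and 7.83 RPKM, a log2 ratio of -1.57. Others past -1 included NDUFS3 of the core, and NDUFB7 (-1.15) and NDUFA11 (-1.04), both accessory subunits of the membrane arm.

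The nuclear core subunits, which carry the flavin and the iron-sulphur clusters or line the path to ubiquinone, did not go one way. NDUFS3, on an entry shared with DKFZp586K0821, had 44.0 RPKM in VCaP against 15.7 RPKM in VCaP ERα (log2 ratio -1.43). NDUFS1, the largest subunit, had 33.5 and 20.3 RPKM (-0.70), and NDUFV1, which binds the flavin and NADH, had 52.2 and 35.0 RPKM (-0.56). These 3 core genes were lower in RPKM, although NDUFV1 was close to the reference median. In contrast, NDUFS8, which binds a pair of iron-sulphur clusters, had 80.9 and 105 RPKM (0.38), and NDUFV2, the partner of NDUFV1, had 15.1 and 20.7 RPKM (0.43). NDUFS7, which holds the last cluster before ubiquinone, was the lowest subunit of the complex in both libraries, with 2.62 and 2.35 RPKM (-0.11). The ratio of NDUFS8 to NDUFS3 was 1.84 in VCaP and 6.72 in VCaP ERα, and that of NDUFV2 to NDUFV1 was 0.290 and 0.592. Such ratios are taken within a library and do not depend on scaling between libraries.

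Among the accessory subunits of complex I, NDUFA5, which sits in the matrix arm, was the only member above 1, with 5.41 RPKM in VCaP against 17.8 RPKM in VCaP ERα (log2 ratio 1.55). NDUFB3, a small membrane-arm subunit, followed with 20.6 and 37.1 RPKM (0.81). Among the most abundant transcripts of the complex were those of the membrane arm. NDUFB9 had the highest level of the complex in both libraries, with 181 and 122 RPKM (-0.56). NDUFB11 had 136 and 97.2 RPKM (-0.48) and was in the third place in both libraries, while NDUFS8 of the core went from the eighth to the second. NDUFB7 had 136 and 60.8 RPKM and went from the second to the eighth place. Most other members of the complex I prefixes had log2 ratios between those of NDUFA3 (-0.99) and NDUFA9 (0.34). By symbol prefix, both NDUFC genes were higher in RPKM (0.29 and 0.33), whereas 13 of 17 NDUFA, 7 of 11 NDUFB, 7 of 8 NDUFS and 2 of 3 NDUFV entries were lower in RPKM; relative to the reference median, 8 NDUFA, 2 NDUFB, 3 NDUFS and 0 NDUFV entries were below.

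Complex II, the succinate dehydrogenase, had 4 members, whose log2 ratios ran from -1.35 to 2.22. SDHD, a membrane anchor of the complex, had 13.4 RPKM in VCaP against 65.9 RPKM in VCaP ERα, giving a log2 ratio of 2.22 and the highest of all members. SDHA, the flavoprotein that oxidises succinate, had 12.3 and 4.20 RPKM (-1.35), the lowest of the complex. SDHB, the iron-sulphur subunit, had 88.0 and 79.7 RPKM (-0.14), lower in RPKM but above the reference median. SDHC, the other anchor, was near the limit of expression with 2.45 and 0.946 RPKM (-0.82), on an entry shared with LOC642502. Thus the subunits of the complex went from a set led by SDHB to one in which SDHB and SDHD were near each other. SDHD made up 11.5% of the summed RPKM of the complex in VCaP and 43.7% in VCaP ERα, while SDHB went from 75.8% to 52.9%, SDHA from 10.6% to 2.79% and SDHC from 2.11% to 0.627%. The ratio of SDHD to SDHA was 1.09 in VCaP and 15.7 in VCaP ERα.

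Complex III, the cytochrome bc1 complex, was the group with the highest median log2 ratio, 0.14, with 5 members higher and 4 lower in RPKM and with 7 above and 2 below the reference median. UQCRH, the hinge protein between cytochrome c1 and cytochrome c, had 94.9 RPKM in VCaP against 317 RPKM in VCaP ERα (log2 ratio 1.73). Its intronless copy UQCRHL had 55.2 and 139 RPKM (1.31). The sequences of the gene and its copy are close, and how reads that match both were assigned is not given in the sources used here, so the values of the pair are uncertain. The ratio of UQCRH to UQCRHL was 1.72 and 2.29. UQCRH made up 15.97% of the summed RPKM of the 8 subunits in VCaP and 40.9% in VCaP ERα.

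The nuclear subunits that carry electrons in complex III went opposite ways in RPKM, each by less than 2-fold. UQCRFS1, the Rieske iron-sulphur protein, had 98.2 RPKM in VCaP against 124 RPKM in VCaP ERα (log2 ratio 0.34). CYC1, cytochrome c1, had 82.9 and 61.0 RPKM (-0.44). Both lay above the reference median, UQCRFS1 by 0.93 and CYC1 by 0.15. The core proteins, which face the matrix and carry no redox group, were both lower, also relative to the reference median. UQCRC1 had 84.7 and 52.1 RPKM (-0.69) and UQCRC2 had 50.6 and 25.9 RPKM (-0.94), the lowest of the complex. Of the small subunits, UQCRQ had 99.0 and 109 RPKM (0.14), UQCR had 71.4 and 71.1 RPKM (-0.01) and UQCRB had 12.5 and 15.8 RPKM (0.31). Without UQCRHL the median log2 ratio of the 8 subunits was 0.07.

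Complex IV, the cytochrome c oxidase, held the lowest log2 ratios of all members. Of its 18 members, 9 were higher and 9 lower in RPKM, 12 were above and 6 below the reference median, and the median log2 ratio was -0.03, but 6 of the higher ones were tissue forms at or near 0. Of the 12 members with a mean of at least 10 RPKM, 3 were higher and 9 lower in RPKM, with 6 above and 6 below the reference median and a median log2 ratio of -0.61. With the minimum of 1 RPKM in at least 1 library the median of the complex was -0.49. COX4I1, the largest of the nuclear subunits and the site of regulation by ATP, had 214 RPKM in VCaP against 41.5 RPKM in VCaP ERα, giving a log2 ratio of -2.34 and a 5.17-fold lower level. COX4NB, which despite its name belongs to a complex of the endoplasmic reticulum membrane, had 26.7 and 3.78 RPKM (-2.53), a 7.05-fold lower level and the lowest log2 ratio of all members. COX6C, on an entry shared with AK128382, had 89.2 and 22.3 RPKM (-1.95), just inside the threshold of 4-fold. COX5B, which binds zinc, had 308 and 140 RPKM (-1.13). These were the 4 members of the complex below -1.

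In the other direction, COX7B, a small subunit that crosses the membrane, had 110 RPKM in VCaP against 281 RPKM in VCaP ERα (log2 ratio 1.34). COX8A, among the smallest subunits, had 314 and 633 RPKM (1.01), the highest level of any member in VCaP ERα. COX6B2, the testis form of COX6B on an entry shared with DKFZp434G1729, had 0.0526 and 1.51 RPKM (1.26), which remained a low level. The subunits in between were COX7A2 (288 and 168 RPKM, -0.78), COX7C (255 and 154 RPKM, -0.72), COX6A1 (161 and 114 RPKM, -0.49), COX6B1 (153 and 121 RPKM, -0.33) and COX5A (81.2 and 73.6 RPKM, -0.14). COX7A2L, which joins complexes III and IV into supercomplexes, had 79.7 and 87.2 RPKM (0.13). The make-up of complex IV transcripts differed accordingly. COX8A went from 15.9% to 36.2% of the summed RPKM of the 16 subunits and COX4I1 from 10.9% to 2.37%, from the fifth to the ninth place. The ratio of COX8A to COX4I1 was 1.47 in VCaP and 15.3 in VCaP ERα, and that of COX7B to COX4I1 was 0.515 and 6.77.

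**Figure D3:**
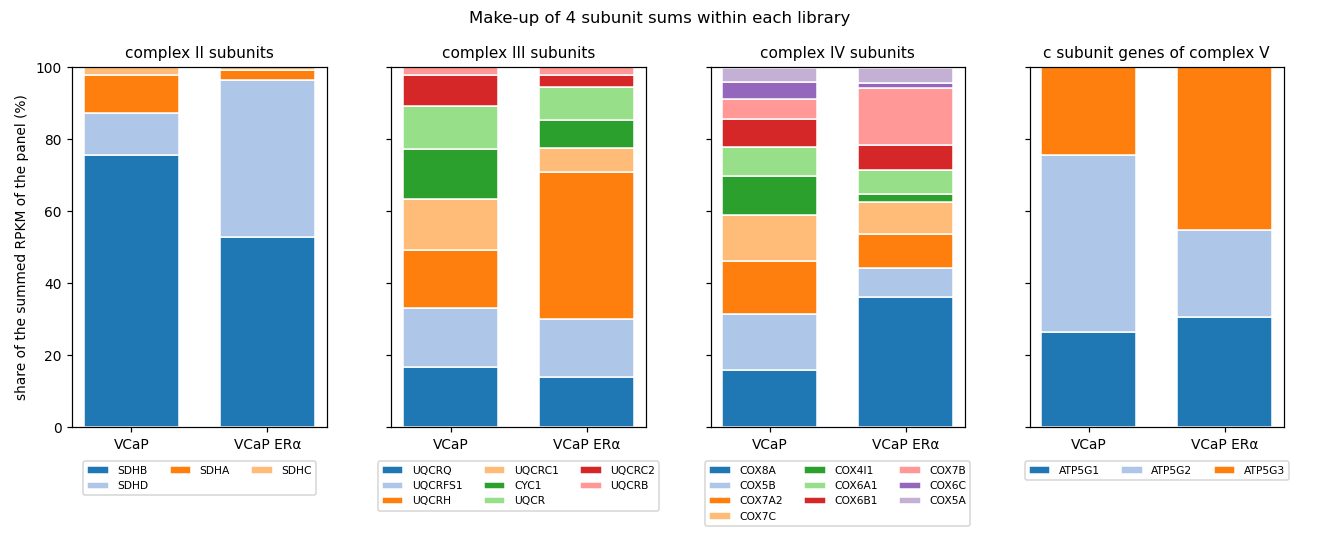
Share of each subunit in the summed RPKM (y axis, %) of complex II, complex III, complex IV and the 3 genes of the c subunit of complex V, each bar being 1 library; complex IV genes under 0.5% in both libraries are not drawn. SDHD grew from 11.5% to 43.7% of complex II, UQCRH from 15.97% to 40.9% of complex III and COX8A from 15.9% to 36.2% of complex IV, while ATP5G2 went from 49.1% to 24.1% of its trio.

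Several subunits of complex IV exist in a widely expressed form and a form of muscle, lung or testis. In both libraries the widely expressed form made up almost all of the transcripts. COX4I1 accounted for 100% of the COX4 pair in VCaP and 99.2% in VCaP ERα, where COX4I2, a lung form that responds to low oxygen, was listed at 0 and then had 0.353 RPKM. COX6A1 accounted for 100% and 99.7% of its pair with COX6A2, the muscle form, which was listed at 0 and had 0.342 RPKM. COX6B1 accounted for 99.97% and 98.8% of its pair with COX6B2. COX7A1, the muscle form of COX7A, had 0.172 and 0.245 RPKM, so that COX7A2 held 99.9% in both libraries. COX7B2 and COX8C were listed at 0 in VCaP and had 0.0882 and 0.104 RPKM in VCaP ERα, leaving 99.97% to COX7B and 99.98% to COX8A. NDUFA4, a gene of the complex I prefix whose protein was later assigned to complex IV, had 75.4 and 63.6 RPKM (-0.24), and held 99.0% and 97.6% of the sum with NDUFA4L2 (0.799 and 1.53 RPKM). Beside the lower level of COX4I1 in VCaP ERα, its paralogue thus remained under 1 RPKM.

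Complex V, the ATP synthase, had 8 members higher and 10 lower in RPKM, 12 above and 6 below the reference median, a median log2 ratio of -0.14 (0.18 over its 15 subunits) and the widest interquartile range of the complexes, 1.705. Its catalytic head held together for the large subunits. ATP5B, the catalytic β subunit, had 484 RPKM in VCaP against 608 RPKM in VCaP ERα (log2 ratio 0.33), ATP5A1, the α subunit, had 131 and 204 RPKM (0.64), and ATP5C1, the γ subunit of the rotor shaft, had 125 and 141 RPKM (0.18). The small subunits of the foot of the shaft were lower. ATP5D, the δ subunit, had 23.3 and 11.2 RPKM (-0.998), and ATP5E, the ε subunit and the highest member in VCaP, had 849 and 358 RPKM (-1.24). ATP5EP2, an intronless copy of ATP5E, had 325 and 234 RPKM (-0.47), lower in RPKM but above the reference median. As for UQCRHL, the values of ATP5E and its copy are uncertain where reads match both. The ratio of ATP5B to ATP5E went from 0.570 to 1.696.

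The peripheral stalk, which holds the head still against the rotor, had 3 of its 4 entries higher. ATP5J, coupling factor 6, had 23.0 RPKM in VCaP against 56.4 RPKM in VCaP ERα (log2 ratio 1.26), the highest of the complex, and ATP5F1, subunit b, had 46.7 and 78.8 RPKM (0.74). ATP5H, subunit d, went the other way with 131 and 51.2 RPKM (-1.33). The fourth, the oligomycin-sensitivity protein ATP5O, stands on an entry that also carries DONSON, C21orf60, AK057604 and CRYZL1, and its 17.1 and 35.9 RPKM (1.02) cannot be assigned to ATP5O. The ratio of ATP5J to ATP5H was 0.176 in VCaP and 1.10 in VCaP ERα. Of the membrane subunits, ATP5L, subunit g, had 63.3 and 120 RPKM (0.92), ATP5J2, subunit f, had 81.7 and 37.6 RPKM (-1.10), and ATP5I, subunit e, had 45.5 and 35.9 RPKM (-0.33). ATP5SL, a gene named for its likeness to the coupling factor ATP5S, was the lowest of the prefix, with 29.1 and 10.1 RPKM (-1.43).

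The c subunit, which forms the rotor ring, is made from 3 genes that encode the same mature protein. ATP5G1 had 50.6 RPKM in VCaP against 48.8 RPKM in VCaP ERα (log2 ratio -0.05), ATP5G2 had 93.9 and 38.3 RPKM (-1.27), and ATP5G3 had 46.7 and 71.9 RPKM (0.61). ATP5G2 led the trio in VCaP and ATP5G3 in VCaP ERα. The share of the trio went from 26.5% to 30.7% for ATP5G1, from 49.1% to 24.1% for ATP5G2 and from 24.4% to 45.2% for ATP5G3. This was the only one of the 8 sets of related genes examined in which the leading gene was not the same in both libraries.

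The members that differed most were not alone on their chromosomes. COX4I1 lies on chromosome 16 from 84390697 to 84398108 (hg18), 95 bp from the end of COX4NB (84369736 to 84390601). Taking the 10 entries with a mean of at least 1 RPKM on each side, which spanned 83068610 to 87234383, all 20 were lower in VCaP ERα, with log2 ratios from -6.18 to -0.34 and a median of -2.37. All but COTL1 (-0.58) and BANP (-0.34) were below the reference median too. ZDHHC7, a palmitoyltransferase gene, had 94.5 and 0.315 RPKM, USP10, a deubiquitinase gene, had 32.7 RPKM and was listed at 0, and MAP1LC3B, an autophagy gene, had 56.5 and 5.13 RPKM. COX4I1 and COX4NB had log2 ratios within the range of these neighbours. On the whole of chromosome 16, the 550 other entries with a mean of at least 1 RPKM had a median log2 ratio of -1.52, and the 5 members of that level were all lower in RPKM, with a median of -0.94.

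SDHD, on chromosome 11 from 111462832 to 111471727, had neighbours of both directions. Of 21 entries around it, 11 were higher and 10 lower in RPKM, with log2 ratios from -2.45 to 3.04 and a median of 0.30. The nearest, TIMM8B, which encodes a small chaperone of mitochondrial import and lies 162 bp away, had 31.8 and 62.2 RPKM (0.95), and PTS, an enzyme of tetrahydrobiopterin synthesis, had 4.28 and 24.6 RPKM (2.28). DLAT, a subunit of the pyruvate dehydrogenase complex, had 5.62 and 13.2 RPKM (1.10). These neighbours were higher alongside SDHD, whereas IL18 had 4.45 RPKM and was then listed at 0.

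**Figure D4:**
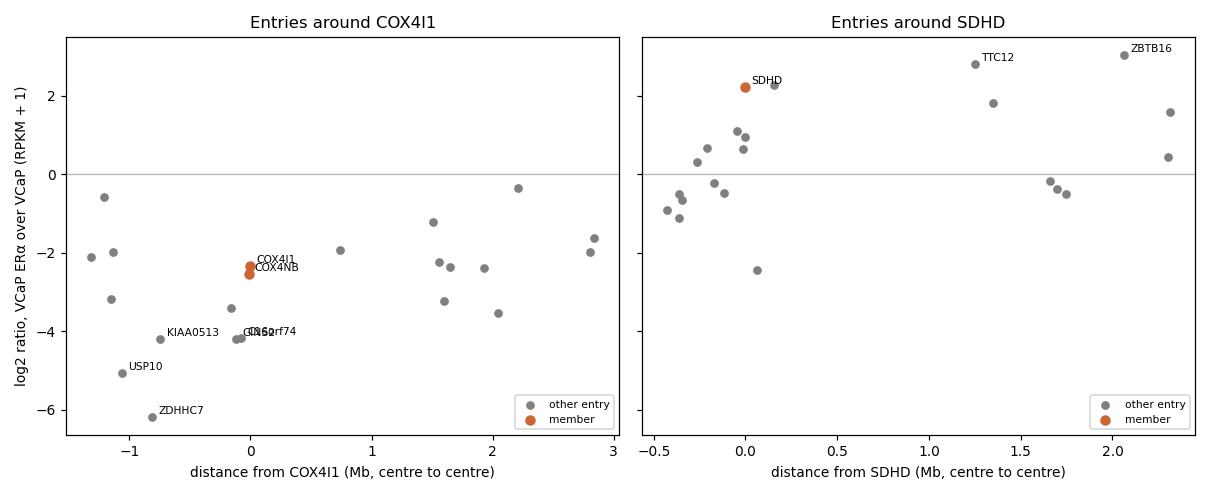
Log2 ratio of VCaP ERα over VCaP (RPKM + 1, y axis) of entries with a mean of at least 1 RPKM against their distance in Mb from COX4I1 (left) and SDHD (right), with members in orange. All 20 entries around COX4I1 and COX4NB lie below 0, and those around SDHD lie on both sides of it.

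Over the 75 members with a mean of at least 10 RPKM, the log2 ratio of a member went with the median log2 ratio of its neighbouring entries, with a Pearson's r of 0.52 and a Spearman's rho of 0.46. Without the 3 members past 2 or -2, r was 0.37 and rho was 0.39 over 72 members. Close members share neighbours, and all share the same pair of libraries, so this is a description. ATP5L on chromosome 11 stood away from it, with a log2 ratio of 0.92 beside a neighbour median of -1.94, and COX8A lay with it, at 1.01 beside 0.90. The mean level (r of 0.098) and the span of the entry on the genome (r of 0.018) showed hardly any relation to the log2 ratio. By chromosome, 10 of the 11 members on chromosome 19 with a mean of at least 1 RPKM were lower, with a median log2 ratio of -0.99 beside -0.83 for the other entries there, although 5 of the 11 were above the reference median. On chromosome 11, 5 of 7 members were higher in RPKM, with a median of 0.38 beside -0.29.

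**Figure D5:**
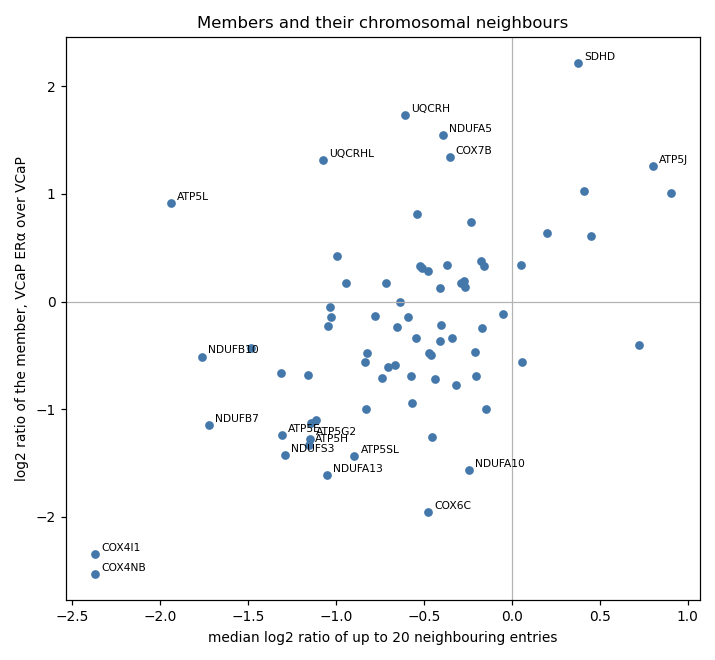
Log2 ratio of the 75 members with a mean of at least 10 RPKM (y axis) against the median log2 ratio of up to 20 neighbouring entries (x axis), each point being 1 member. Points run from COX4I1 and COX4NB at the lower left to SDHD, ATP5J and COX8A at the upper right (r of 0.52), with ATP5L at the upper left.

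Other genes of the pathway were taken from lists that were not trimmed by value. None of the 26 mitochondrially encoded symbols looked for was found in the tables, so the partners of these nuclear subunits from mitochondrial DNA were not analysed here. Of 11 subunits and electron-transfer partners that the prefixes miss, 2 were higher and 9 lower in RPKM, against 5 above and 6 below the reference median, with a median log2 ratio of -0.60. CYCS, cytochrome c, which carries electrons from complex III to complex IV, had 7.60 and 23.5 RPKM (1.51), the highest of that list. ETFA, of the flavoprotein that feeds electrons from fat oxidation, had 97.9 and 34.4 RPKM (-1.48), the lowest. Of 29 assembly factors found, 11 were higher and 18 lower in RPKM, against 17 above and 12 below the reference median, with a median of -0.38. FAM36A, also known as COX20, which guards a newly made subunit of complex IV, had 2.56 and 13.53 RPKM (2.03). OXA1L, which inserts proteins into the inner membrane, had 52.5 and 8.80 RPKM (-2.45).

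Regulators of these genes went in both directions. Of 17 regulators, 8 were higher and 9 lower in RPKM, against 13 above and 4 below the reference median. GABPA, the DNA-binding part of the GA-binding protein (also called NRF-2), had 1.97 and 9.66 RPKM (1.84), and TFAM, which packages and transcribes mitochondrial DNA, had 4.90 and 20.1 RPKM (1.84). TFB2M, a transcription factor of mitochondrial DNA, had 7.25 and 13.3 RPKM (0.80), and ESRRA, oestrogen-related receptor α, had 9.60 and 16.7 RPKM (0.74). These 4 genes were higher in VCaP ERα. GABPB2, a partner of GABPA, had 4.38 and 0.549 RPKM (-1.80), while its other partner GABPB1 had 19.3 and 21.2 RPKM (0.13). NRF1, nuclear respiratory factor 1, had 3.02 and 2.09 RPKM (-0.38), YY1 had 36.3 and 19.6 RPKM (-0.85), and the coactivator gene PPRC1 had 5.08 and 2.65 RPKM (-0.74). The coactivators PPARGC1A (0.135 and 0.0370 RPKM) and PPARGC1B (0.554 and 0.636 RPKM) were under 1 RPKM in both libraries, and ESRRG was listed at 0 and had 0.623 RPKM. Of the machinery of mitochondrial transcription, TFB1M had 5.00 and 2.62 RPKM (-0.73), POLRMT had 2.38 and 1.31 RPKM (-0.54) and MTERF had 5.32 and 4.39 RPKM (-0.23). MYC had 14.7 and 17.5 RPKM (0.24) and HIF1A had 79.1 and 57.0 RPKM (-0.47).

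The tricarboxylic acid cycle supplies NADH and succinate to the chain. Of 17 entries of the cycle and of pyruvate dehydrogenase, 8 were higher and 9 lower in RPKM. Above the reference median were 10 and below it 7, with a median log2 ratio of -0.07. The pyruvate dehydrogenase genes PDHA1 (0.47), PDHB (0.85), PDHX (1.31) and DLAT (1.10) were all higher, so the balance of the cycle alone is less even. The extremes of the list were subunits of 1 enzyme. IDH3A, the catalytic subunit of isocitrate dehydrogenase 3, had 10.6 and 35.5 RPKM (1.65), whereas IDH3G, a regulatory subunit, had 41.3 and 8.52 RPKM (-2.15). A further list held the carriers that exchange ADP, ATP and phosphate together with the VDAC channel genes. Of its 8 entries, 3 were higher and 3 lower in RPKM. Among the carriers, SLC25A3 had a log2 ratio of 0.08, SLC25A4 had 8.66 and 21.0 RPKM (1.19) and SLC25A5 had 223 and 68.4 RPKM (-1.69). The channel genes were VDAC1 (-0.09), VDAC2 (-0.12) and VDAC3 (0.47). SLC25A6, which lies in a region shared by the X and Y chromosomes, was listed at 0 on both of its entries in both libraries.

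Ribosomal proteins of the mitochondrion, which serve translation of mitochondrial DNA products, and of the cytosol, which serve that of the nuclear genes, were set beside the members. Of 77 entries of mitochondrial ribosomal proteins, 26 were higher and 51 lower in RPKM, against 40 above and 37 below the reference median, with a median log2 ratio of -0.49 and extremes at MRPL1 (4.07 and 16.1 RPKM, 1.75) and MRPL10 (105 and 9.58 RPKM, -3.32). Past 2-fold there were 8 higher and 24 lower of the 77. Of the 9754 expressed entries, 770 (7.89%) and 3468 (35.6%) passed these limits, and of all entries 9.16% and 18.5%. By contrast, of 100 entries with cytosolic ribosomal protein symbols, copies such as RPL13AP3 included, 77 were higher and 19 lower in RPKM. Above the reference median lay 94 and below it 6, while 74.1% of all entries lay above it. Of the 100 entries, 86 reached 1 RPKM in at least 1 library, and entries near 0 in both lie above the reference median by construction. The list had a median log2 ratio of 0.48, and its share of the summed RPKM went from 7.53% to 14.7%. The extremes of that list were RPS4Y1, which lies on the Y chromosome (0.0842 and 261 RPKM, 7.92), and RPL39L (19.2 RPKM and then listed at 0, -4.34). Thus the nuclear oxidative phosphorylation genes had a median log2 ratio between those of the mitochondrial and the cytosolic ribosomal proteins, a comparison that was not tested.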

How the data were processed

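RNA of VCaP and VCaP ERα cells (1 library each) was analysed. The authors deposited 1 RPKM value for each entry, with symbols and coordinates, and no normalization between libraries is stated. The submitters' processing notes name CASAVA 1.8 and the builds hg18 and mm10. The aligner and the counting method, including the treatment of strand and of reads that match several places, are not given in the sources used here. The total number of reads is unknown, and low values did not give a common unit per read, so no interval or detection floor was computed. Of the members, 7 stand on entries with several symbols and 17 overlap another entry, whose reads may be shared.

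From the deposited values, the log2 ratio was taken after adding a pseudocount of 1 RPKM, which understates the change of low entries, and every entry was kept. No test was made and no replicates exist. Thresholds were 1 and 2 on the log2 scale. The symbol rule for members uses no measured value, but the members and lists were chosen with earlier results of these data known. Named were members past 2 or -2, the 3 highest and 3 lowest log2 ratios and the 2 highest levels per complex, related genes, the catalytic core, the regulators, and the extremes of each pathway list; further members, and the neighbouring genes, were named after their values were seen. A further member that the rule covers is not reported here. Neighbours were the 10 nearest entries on each side with a mean of at least 1 RPKM; around SDHD, every such entry touching the spanned region was shown.

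Alternatives were a pseudocount of 0.1, at least 1 RPKM in 1 library, centring so that the expressed entries (1 RPKM or more in each library) had a median of 0, quantile normalization, 1 entry per symbol, subunits only, and omission of the 10 highest entries. A planned count of promoter motifs was not made, since human promoter sequences were not used here. Scripts (Python 3.11.15, numpy 2.4.6, pandas 2.3.3, matplotlib 3.10.9) were tested on simulated data.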

Additional observations from a re-analysis of the deposited data

How the results depend on the processing

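Scaling between the libraries decided the balance of the members, since centring adds 0.59 to every log2 ratio by construction. After centring, the median of all members was 0.35, with 18 members above 1, 4 below -1, 3 above 2 and 0 below -2, and the medians were 0.22 for complex I, 0.11 for complex II, 0.73 for complex III, 0.56 for complex IV and 0.45 for complex V. Quantile normalization, under which the median of the expressed entries was 0.019, gave 17 above 1, 4 below -1, 3 above 2 and 0 below -2. Its medians were 0.22 for all members, 0.20 for complex I, -0.13 for complex II, 0.51 for complex III, 0.03 for complex IV and 0.47 for complex V, so those of all members and of complexes I, IV and V changed sign. With a pseudocount of 0.1, 4 members were above 2, and with subunits only, 1 was below -2, since COX4NB was left out, while the median of complex V became 0.18. The minimum of 1 RPKM in 1 library moved the median of complex IV from -0.03 to -0.49. Of the 51 members named by the fixed rule, 10 changed sign on centring, 8 after quantile normalization and 0 with the pseudocount of 0.1. Members named beyond that rule were not counted. Some of them changed sign on centring, such as COX5A (-0.14 to 0.45) and ATP5I (-0.33 to 0.26), and others did not, such as COX5B (-1.13 to -0.54). The minimum of 1 RPKM, 1 entry per symbol and omission of the 10 highest entries left each count within 1.5 times, and each median within 0.58, of the value reported. No paired analysis was possible because each condition has 1 library, and the same holds for leaving out a replicate. Without read totals, the precision of low values is unknown.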

Other observations

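ATP5J has the regulator GABPA as its neighbour, and this pair was picked after its values were seen. Their entries on chromosome 21 overlap by 1085 bp. ATP5J had 23.0 and 56.4 RPKM and GABPA 1.97 and 9.66 RPKM in VCaP and VCaP ERα, so both were higher in VCaP ERα, and the part of reads from the overlap was not tested.

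The mouse fibroblasts give the same gene family in another pair of libraries. By the same symbol rule, 91 mouse entries were found, of which 60 were higher and 28 lower in the NEAT1 knockout and 3 were listed at 0 in both, with a median log2 ratio of 0.08 and an interquartile range of 0.27. Of the 10888 mouse entries that reached 1 RPKM in each of those libraries, 4260 were higher and 6628 lower in the knockout, with a median of -0.06. Of the 86 entries of the family at that level, 58 were higher and 28 lower. The family held 2.71% of the summed RPKM in wild-type and 2.90% in knockout fibroblasts. Cox4i1 had 453 and 472 RPKM and Sdhd 72.6 and 71.2 RPKM. The entry with the highest log2 ratio was Ndufa4l2, with 4.23 RPKM in wild-type and 24.8 RPKM in knockout fibroblasts (2.31), followed by Cox7c with 51.0 and 85.1 RPKM (0.73) and Cox4i2 with 2.21 and 4.28 RPKM (0.72). The lowest was Ndufaf1, with 7.48 and 4.93 RPKM (-0.52). Both species had 77 symbols in common with at least 1 RPKM in all 4 libraries. Over these, the interquartile range of the log2 ratio was 1.12 between the VCaP libraries and 0.275 between the fibroblast libraries. Past 1 or -1 were 23 and 0 of these symbols. Ndufa4l2 was not among the 77, since NDUFA4L2 had 0.799 RPKM in the VCaP library. Over all entries that reached 1 RPKM in each library of a pair, the interquartile range was 1.46 for the VCaP and 0.295 for the fibroblast libraries. Of the 9754 such entries of the VCaP libraries, 770 (7.89%) were above 1 and 3468 (35.6%) below -1. The share of all fibroblast entries past these limits was not computed. The fibroblast RNA was poly-A selected and the tables were made separately, so this sets 2 ranges side by side without a test.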
